A study of Mus musculus with 10 samples.

Results

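The 44 genes described here run the cell division cycle and DNA replication. They were taken by symbol from a table of raw read counts with 23429 entries, in which all 44 were found, and all 44 were among the 14548 genes that passed the filter on low counts. The RNA came from mouse embryoid bodies, aggregates of differentiating embryonic stem cells, of a line named iHA-Etv2, which carries an Etv2 transgene with an HA tag under the control of doxycycline. Etv2 is the ETS factor without which embryos form neither blood nor endothelium. There were 5 groups of 2 libraries, all of this same line. At day 2.5 these were embryoid bodies given doxycycline and labelled positive for Flk1, the receptor encoded by Kdr that marks vascular and blood precursors, other doxycycline-treated embryoid bodies not so labelled, and untreated embryoid bodies. At day 2 they were doxycycline-treated and untreated embryoid bodies. The labels do not give the hour or dose of doxycycline, do not say how Flk1-positive cells were separated or whether the other libraries were sorted, and do not say that the replicates were separate cultures, so each p-value measures only the spread between these libraries. Etv2 stood at 323 and 303 CPM (read counts relative to the TMM-scaled size of the library) in the Flk1-positive libraries and 272 and 255 CPM in the other doxycycline libraries of day 2.5, against 6.57 and 7.50 CPM in untreated ones. At day 2 it stood at 507 and 403 CPM with doxycycline, against 15.8 and 18.1 CPM without. The counts cannot separate the transgene from the gene of the mouse.

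A dividing cell passes from G1, when D-type cyclins with Cdk4 or Cdk6 and then cyclin E with Cdk2 release E2F transcription factors from Rb, into S phase, when licensed origins fire and DNA is copied, and through G2 into mitosis, which cyclin B with Cdk1 starts and the anaphase-promoting complex with Cdc20 ends. Cdk inhibitors such as the products of Cdkn1b and Cdkn1c hold these kinases in check. Pluripotent mouse cells are known for a short G1, with much cyclin E and little restraint by Rb, and G1 lengthens as they differentiate. The 44 genes were divided by textbook role into 9 genes of G1 control (the D-type cyclins and their kinases, Rb1 and E2f1, and the Cdk inhibitors), 17 genes of the G1/S step and S phase (the cyclin E arm, origin licensing, and fork and nucleotide supply) and 18 genes of G2 and mitosis. In bulk samples, fewer cells in a phase and less RNA per cell cannot be told apart.

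Total counts per library were between 18074070 and 36068329, and members ranged between 3.66 CPM (Cdk6 in 1 Flk1-positive library) and 1623 CPM (Top2a in another). The smallest count of any member in a library was 69, for Cdk6. Replicates varied beyond counting error. The chi-square per gene was 33.9 between the doxycycline day 2 libraries, against 3.40 to 10.04 in the other 4 pairs. The difference between those 2 libraries followed exon length (Spearman rho -0.46 across tested genes of known length, a description only, since genes are not replicates). Among the members it was largest for Mki67, by 0.62 on the log2 scale. The difference between the 2 Flk1-positive libraries followed GC content (rho 0.38), as did that between the doxycycline day 2 libraries (rho 0.35). Values of the doxycycline day 2 group are therefore less certain, and to a lesser extent those of the Flk1-positive and untreated day 2.5 groups. The chi-square per gene was 10.04 in the untreated day 2.5 pair and 7.77 in the Flk1-positive pair. In both Ccne2 was the member that differed most, by 0.70 and 0.62 on the log2 scale. Flk1-positive libraries differed in cell markers as well: Kdr stood at 1008 and 986 CPM there, 405 and 433 CPM in other doxycycline libraries and 7.05 and 7.42 CPM in untreated ones, and Nanog, a pluripotency factor, at 1.45 and 2.70 CPM in Flk1-positive, 73.5 and 73.4 CPM in other doxycycline and 262 and 242 CPM in untreated libraries of day 2.5. Pou5f1, which defines pluripotent and early epiblast cells, had 858 and 796 CPM in Flk1-positive, 736 and 713 CPM in other doxycycline and 1033 and 933 CPM in untreated libraries of day 2.5, and at day 2 1570.1 and 1113 CPM with doxycycline and 1337 and 1478 CPM without. Summed levels of 4 pluripotency markers (Pou5f1, Nanog, Sox2 and Utf1), 4 primitive streak and mesoderm markers (T, Mixl1, Eomes and Mesp1) and 6 markers of endothelial and blood precursors (Kdr, Etv2, Tal1, Lmo2, Cdh5 and Pecam1), of which none was at 0 in both libraries of a group, are given with each comparison. Their part in the results was not tested. A sum can hide markers that went opposite ways. The sum for endothelial and blood precursors holds Etv2, which the transgene encodes, and Kdr, which encodes the Flk1 label. Its differences with doxycycline or with the Flk1 label were therefore partly set by the design. The sum over 6 fibroblast or feeder markers was 21.1 to 40.1 CPM over the groups, with Col3a1, Dcn and Postn at 0 in both Flk1-positive libraries, and that over 4 leukocyte markers was at most 2.56 CPM, with Ptprc and Itgam at 0 there. Transcripts of some members (Ccnb1, Ccnd3, Cdc20, Cdc6, Mcm7, Pcna, Plk1 and Tyms) share runs of sequence with transcripts of other annotated genes. Parts of the exons of some members overlap another gene, 30.7% of Cdkn1c and 23.4% of Ccnd1 among them. How the authors' counting divided such reads is not given in the sources used here, so the levels of these genes are uncertain to that extent.

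Across the 5 groups the members varied by very different amounts, as the heat map of all 44 genes shows. The ratio of the highest to the lowest group mean had a median of 1.86 over the 9 genes of G1 control, 1.47 over the 17 genes of G1/S and S, and 1.46 over the 18 genes of G2 and mitosis. Cdk6, a kinase partner of the D-type cyclins, had the widest range with a ratio of 5.51, followed by Ccnd2 (cyclin D2) with 5.23, Ccne1 (cyclin E1) with 2.82, Ccnd1 (cyclin D1) with 2.72 and Cdkn1b with 2.51. Ccnb2 (cyclin B2) had the narrowest, 1.09. The Flk1-positive group had the lowest mean of all 5 groups for 15 of the 17 G1/S and S genes. It had the highest for 9 of the 18 G2 and mitosis genes, while the other doxycycline group of day 2.5 had the lowest for 9 of these 18. Such extremes were not counted over all genes. Of all genes tested, 55.3% were called between Flk1-positive and untreated samples and 41.8% between Flk1-positive and other doxycycline samples of day 2.5. Over the 7 comparisons tested, 8 members passed the threshold in none: Rb1, E2f1, Ccnd3, Ccnb2, Plk1, Bub1b, Rrm1 and Tyms. The share of all genes that passed in none was not worked out, so this count only describes the members.

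**Figure D1:**
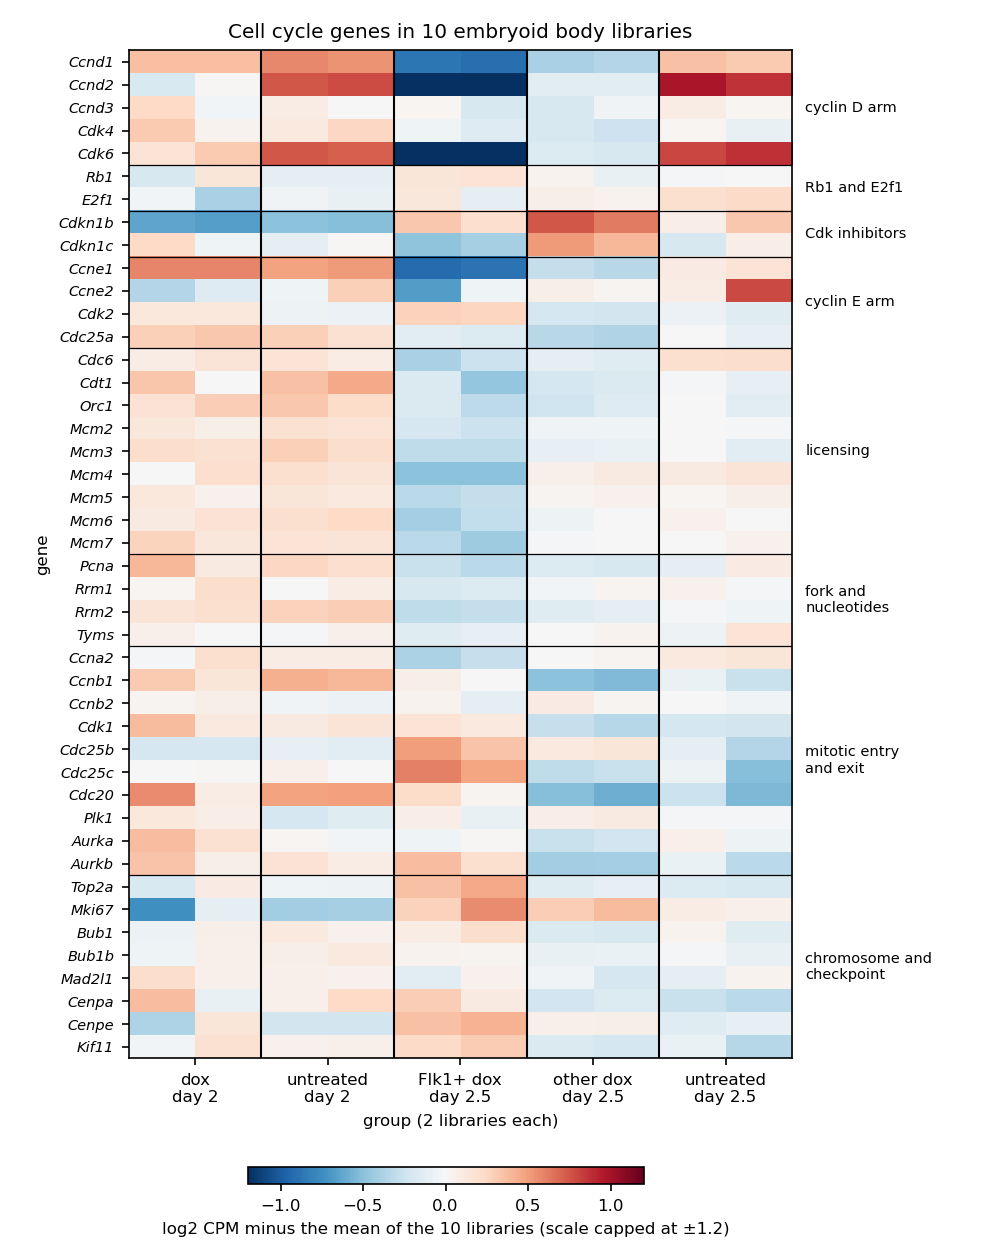
Heat map of the 44 genes (rows, grouped by role) in the 10 libraries (columns, 2 per group). Colour is log2 CPM minus the gene's own mean over the 10 libraries, red above and blue below it, with the scale capped at 1.2. Ccnd1, Ccnd2, Cdk6 and Ccne1 were lowest in the Flk1-positive libraries, and the licensing rows were mostly blue there.

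Flk1-positive doxycycline samples of day 2.5 were set against the other doxycycline samples of the same day to ask how cells labelled Flk1-positive differ from samples with the same treatment. In the Flk1-positive samples 11 of 18 genes of G2 and mitosis were higher, while 5 of 9 genes of origin licensing and 3 of 5 of the D-type cyclins and their kinases were lower. In edgeR's quasi-likelihood test, with Benjamini-Hochberg adjustment over all 14548 genes and a threshold of 0.05, 12 members were higher and 12 lower. Of all genes tested, 41.8% were called, 20.5% higher and 21.3% lower, so the share of members called was not far above that of genes in general, and the 2 directions divided by phase. Of the 18 G2 and mitosis genes 1 was lower (median log2 fold change 0.33). Of the 17 G1/S and S genes 1 was higher and 6 lower (median -0.18), and of the 9 G1 control genes none was higher and 5 were lower (median -0.42), beside a median of -0.004 over all genes tested. The count of 11 was 7 without either of the 2 other doxycycline libraries of day 2.5. Calls for 16 of the 24 members held under all 17 alternative analyses, and those for Bub1, Ccna2, Cdc25b, Cdkn1b, Cenpa, Cenpe, Mcm3 and Mcm6 were lost without at least 1 of Flk1-positive replicate 1 and 2, other doxycycline day 2.5 replicate 1 and 2, untreated day 2.5 replicate 1 and 2 and untreated day 2 replicate 1 and 2 (edgeR, adjusted p up to 0.265). Of these, Cdc25b was also lost without the filter on low counts and with trends of length and GC content removed, and Mcm3 without the filter and under RLE scaling.

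**Figure D2:**
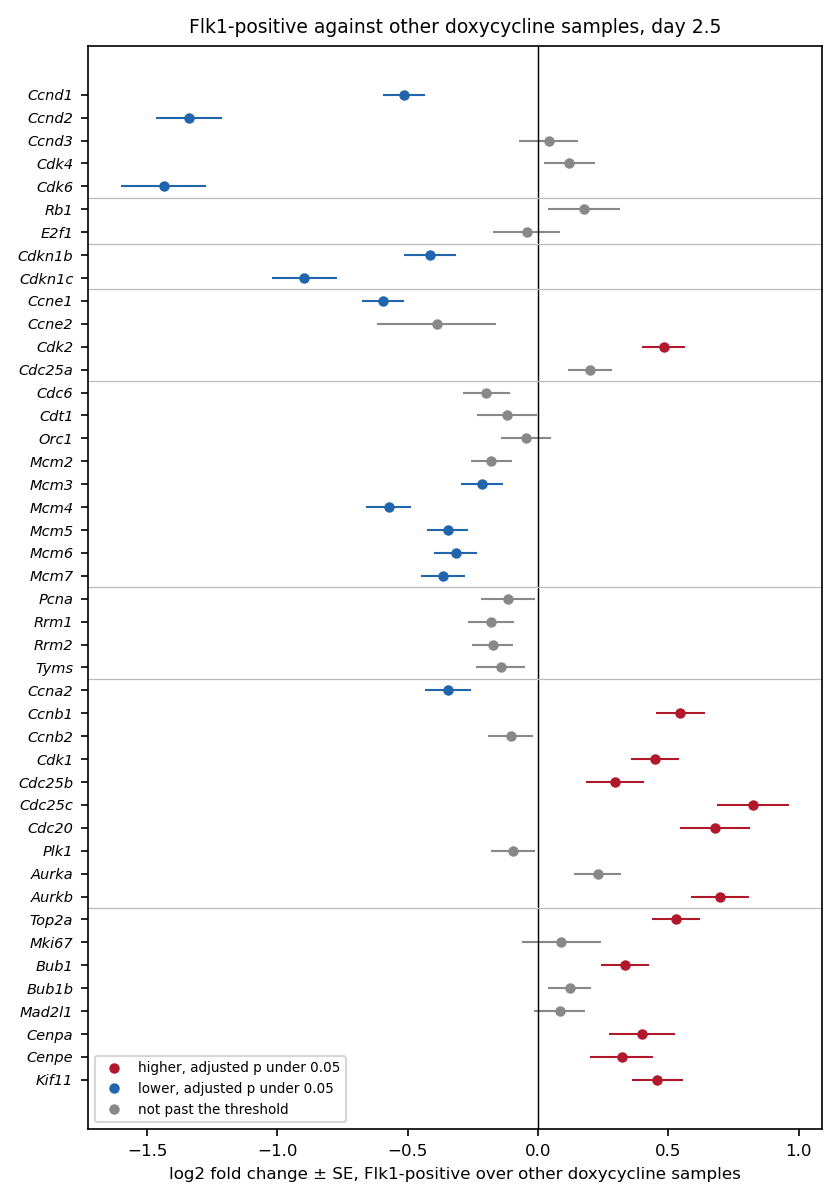
Log2 fold change of each of the 44 genes, Flk1-positive over other doxycycline samples of day 2.5 (x axis), with bars of 1 standard error. Red points are higher and blue points lower at an adjusted p under 0.05 and grey points did not pass. Most points of mitosis genes lie right of 0 and those of the Mcm genes left of it.

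Among the D-type cyclins, which carry growth signals into the cycle, Ccnd2 (chr6:127125162-127152193, minus strand, GRCm38) fell most. It stood at 11.5 and 14.4 CPM in the Flk1-positive libraries, against 32.5 and 32.8 CPM in the other doxycycline libraries. The groups were far apart beside the spread within each, with a log2 fold change of -1.34 ± 0.13 (SE; edgeR, adjusted p = 1.23e-06). Ccnd1 (chr7:144929931-144939925, minus strand) fell less, to 133 and 129.8 CPM in Flk1-positive libraries, against 186 and 190.4 CPM in other doxycycline libraries, a log2 fold change of -0.51 ± 0.08 (SE; edgeR, adjusted p = 0.000121). Ccnd3, the other cyclin of the family, had 68.3 and 58.8 CPM in Flk1-positive and 58.6 and 65.1 CPM in other doxycycline libraries. These ranges overlapped, and its log2 fold change was 0.04 ± 0.11 (edgeR, adjusted p = 0.803). Cdk6 (chr5:3341485-3531008, plus strand) stood at 4.17 and 3.66 CPM in Flk1-positive libraries, against 10.7 and 10.5 CPM in other doxycycline libraries, a log2 fold change of -1.44 ± 0.16 (SE; edgeR, adjusted p = 7.03e-06). Cdk4, the other kinase that binds D-type cyclins, had 646 and 604 CPM in Flk1-positive libraries and 586 and 565 CPM in the others, and its log2 fold change of 0.12 did not pass (edgeR, adjusted p = 0.352). Rb1, which encodes the protein that these kinases phosphorylate, and E2f1, an E2F factor that it binds, did not pass either, with log2 fold changes of 0.18 and -0.04.

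Levels were divided by exon length in kilobases to set genes on a rough common scale. The 3 D-type cyclins then summed to 36.6 ± 1.10 CPM per kb in Flk1-positive libraries. The sum was 50.5 ± 1.23 in other doxycycline libraries and 80.1 ± 1.73 in untreated libraries of day 2.5 (SD, n = 2 each). At day 2 the sum was 78.2 ± 0.58 CPM per kb with doxycycline and 90.3 ± 1.33 without. By these lengths cyclin D1 made up most of it in every group, between 76.4% in Flk1-positive and 84.9% in doxycycline day 2 libraries. The share of Ccnd3 was 19.8% ± 1.49 in Flk1-positive libraries, 13.96% ± 0.691 in other doxycycline libraries and 9.92% ± 0.0978 in untreated ones (SD, n = 2 each). That of Ccnd2 was 3.78% in Flk1-positive, 6.88% in other doxycycline and 9.001% in untreated libraries. Exon lengths are those of GENCODE M21, which may not be the annotation the authors counted with. They join the exons of all transcripts of a gene, 4709 bases for Ccnd1, 9409 for Ccnd2 and 8775 for Ccnd3. A gene whose main transcript is shorter than that is put too low. The sum and the shares therefore depend on these lengths.

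Both Cdk inhibitors were lower in Flk1-positive than in other doxycycline samples. Cdkn1c (chr7:143458339-143461050, minus strand), an imprinted gene, stood at 31.5 and 33.4 CPM in Flk1-positive libraries, against 62.6 and 58.1 CPM in other doxycycline libraries, a log2 fold change of -0.90 ± 0.13 (SE; edgeR, adjusted p = 4.92e-05). Cdkn1b (chr6:134920401-134925513, plus strand) stood at 90.1 and 82.7 CPM in Flk1-positive libraries, against 120.2 and 110.3 CPM in other doxycycline libraries, a log2 fold change of -0.42 ± 0.10 (SE; edgeR, adjusted p = 0.00392). The groups did not overlap for either gene. The Cdkn1b call was lost without other doxycycline replicate 1 or Flk1-positive replicate 2 (adjusted p up to 0.057). In the cyclin E arm, Ccne1 (chr7:38097984-38107534, minus strand) fell to 116 and 119 CPM in Flk1-positive libraries, against 181 and 174 CPM in other doxycycline libraries, a log2 fold change of -0.60 ± 0.08 (SE; edgeR, adjusted p = 3.78e-05). Its kinase Cdk2 went the other way, with 142 and 139 CPM in Flk1-positive libraries, against 101 and 100.4 CPM in other doxycycline libraries, a log2 fold change of 0.48 ± 0.08 (SE; edgeR, adjusted p = 0.000262). Cyclin E1 binds and activates Cdk2, so the cyclin and the kinase of this complex differed in direction. Cdc25a, a phosphatase that activates Cdk2, had a log2 fold change of 0.20 and Ccne2 (cyclin E2) one of -0.39, and neither passed (edgeR, adjusted p = 0.0696 and 0.189).

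**Figure D3:**
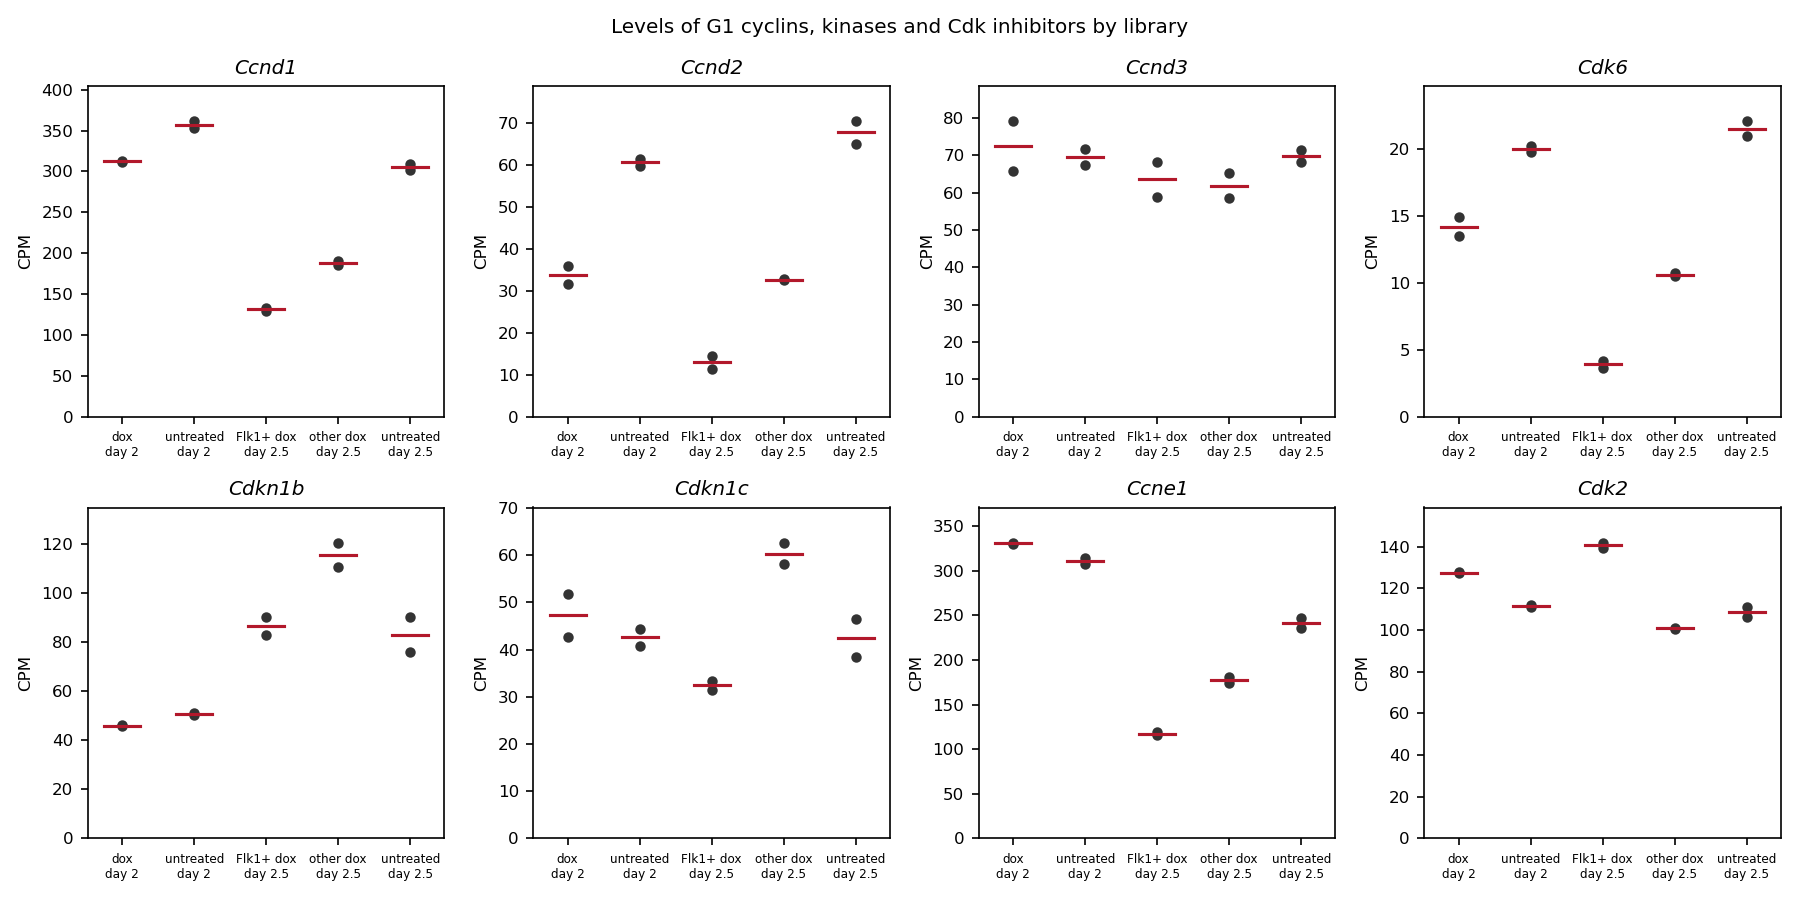
CPM (y axis, from 0) of 8 G1 cyclins, kinases and Cdk inhibitors in the 5 groups. Black points are single libraries and red bars are group means (n = 2). Ccnd1, Ccnd2, Cdk6 and Ccne1 were lowest and Cdk2 highest in the Flk1-positive libraries, Cdkn1b and Cdkn1c were highest in the other doxycycline libraries of day 2.5, and Ccnd3 varied little.

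Origin licensing loads the ring-shaped helicase made of Mcm2 to Mcm7 onto origins bound by the origin recognition complex, with the help of Cdc6 and Cdt1. Mcm4 fell most in Flk1-positive samples, to 351 and 351 CPM in Flk1-positive libraries, against 514 and 529 CPM in other doxycycline samples, a log2 fold change of -0.57 ± 0.09 (SE; edgeR, adjusted p = 1e-04). Mcm7, Mcm5, Mcm6 and Mcm3 fell by 0.36, 0.35, 0.32 and 0.22 on the log2 scale (edgeR, adjusted p = 0.00281, 0.00256, 0.00606 and 0.0449). Mcm2 had a log2 fold change of -0.18 and did not pass (edgeR, adjusted p = 0.0765). The loaders Cdc6 and Cdt1 and the origin recognition subunit Orc1 did not pass, with log2 fold changes of -0.20, -0.12 and -0.05. Neither did the genes of the fork and of nucleotide supply: Pcna (the sliding clamp) had -0.11, Rrm1 and Rrm2 (the subunits of ribonucleotide reductase) -0.18 and -0.17, and Tyms (thymidylate synthase) -0.14. All 4 values were below 0 and their adjusted p was at least 0.0878 (edgeR).

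The mitosis genes included both sides of entry and exit. Cdc25c, a phosphatase that activates Cdk1, stood at 42.7 and 38.99 CPM in Flk1-positive libraries, against 22.8 and 23.4 CPM in other doxycycline libraries, a log2 fold change of 0.82 ± 0.14 (SE; edgeR, adjusted p = 0.00023). Aurkb, the kinase of the chromosomal passenger complex, stood at 118 and 104 CPM in Flk1-positive libraries, against 68.3 and 68.8 CPM in other doxycycline libraries, a log2 fold change of 0.70 ± 0.11 (SE; edgeR, adjusted p = 0.000166). Cdc20, the activator of the anaphase-promoting complex, stood at 306 and 269.7 CPM in Flk1-positive libraries, against 185 and 175 CPM in other doxycycline libraries, a log2 fold change of 0.68 ± 0.13 (SE; edgeR, adjusted p = 0.00097). In these 3 genes the Flk1-positive libraries lay above the other doxycycline libraries without overlap. Ccnb1 (cyclin B1) and its kinase Cdk1 rose by 0.55 and 0.45 on the log2 scale (edgeR, adjusted p = 0.000304 and 0.00125), and Cdc25b, another Cdk phosphatase, by 0.29 (adjusted p = 0.0447), the call that was lost under 8 of the 17 alternatives. The exception was Ccna2 (cyclin A2), which acts in S phase and G2 and stood at 267 and 285 CPM in Flk1-positive libraries, against 348 and 354 CPM in other doxycycline libraries, a log2 fold change of -0.35 ± 0.09 (SE; edgeR, adjusted p = 0.00558). Ccnb2, Plk1 (a kinase of mitotic entry) and Aurka (a spindle pole kinase) did not pass, with log2 fold changes of -0.10, -0.10 and 0.23.

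Of the 8 genes of chromosomes, kinetochores and the spindle checkpoint, 5 rose in Flk1-positive samples and none fell. Top2a, the topoisomerase that untangles sister DNA, stood at 1507 and 1623 CPM in Flk1-positive libraries, against 1066 and 1102 CPM in other doxycycline libraries, a log2 fold change of 0.53 ± 0.09 (SE; edgeR, adjusted p = 0.00037). Kif11, the kinesin that pushes spindle poles apart, had 346 and 364 CPM in Flk1-positive libraries, against 262 and 255 CPM in other doxycycline libraries, a log2 fold change of 0.46 ± 0.10 (SE; edgeR, adjusted p = 0.00184). For both genes all Flk1-positive values were above all others of this comparison. Cenpa (the histone variant of centromeres), Bub1 (a checkpoint kinase) and Cenpe (a kinetochore kinesin) rose by 0.40, 0.33 and 0.32 (edgeR, adjusted p = 0.0196, 0.0092 and 0.0447). Mki67, the proliferation marker that coats mitotic chromosomes, had 742 and 908 CPM in Flk1-positive libraries and 755 and 796 CPM in the others, ranges that overlapped (log2 fold change 0.09; edgeR, adjusted p = 0.667). Bub1b and Mad2l1, of the checkpoint, had log2 fold changes of 0.12 and 0.08 and did not pass. Between these groups the markers differed as well. The endothelial and blood markers summed to 2559.6 to 2617 CPM in Flk1-positive and 1198 to 1226 CPM in other doxycycline libraries. The pluripotency markers summed to 922 to 1009 CPM in Flk1-positive and 1054 to 1095 CPM in other doxycycline libraries. The primitive streak markers summed to 710.2 to 739 CPM in Flk1-positive and 779.7 to 806 CPM in other doxycycline libraries. Within the first sum Pecam1 was lower, with 5.29 and 5.51 CPM in Flk1-positive and 7.06 and 9.65 CPM in other doxycycline libraries. Cdh5 overlapped, and Kdr, Etv2, Tal1 and Lmo2 were higher. Within the last 2 sums the markers went opposite ways too. T had 577 and 546 CPM in Flk1-positive and 368 and 356 CPM in other doxycycline libraries. Eomes, at 123 and 130.2 CPM against 336 and 333 CPM, was lower, as were Mixl1 and Mesp1. Pou5f1 was higher and Nanog, Sox2 and Utf1 were lower in Flk1-positive libraries.

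Promoter sequences are shown for 2 licensing genes that fell (Mcm5 and Mcm6) and 3 mitosis genes that rose (Cdk1, Kif11 and Cdc20) in this comparison, because these classes carry different textbook elements: E2F sites in genes of S phase and the cell cycle genes homology region (CHR) in genes of mitosis. They were picked as examples that hold such matches, which some other genes of either direction lack. RefSeq promoter windows of build GRCm38.p6 were matched by symbol for 35 of the 44 members. The last 160 bases before the RefSeq start are printed on the strand of the gene, with E2F-type and CHR-type matches in capitals.
Mcm5: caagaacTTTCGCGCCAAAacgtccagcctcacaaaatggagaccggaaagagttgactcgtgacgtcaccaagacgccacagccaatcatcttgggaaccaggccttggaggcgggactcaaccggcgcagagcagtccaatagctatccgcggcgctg
Mcm6: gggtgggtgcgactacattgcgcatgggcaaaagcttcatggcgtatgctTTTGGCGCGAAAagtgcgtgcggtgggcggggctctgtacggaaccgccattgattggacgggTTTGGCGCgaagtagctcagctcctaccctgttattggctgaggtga
Cdk1: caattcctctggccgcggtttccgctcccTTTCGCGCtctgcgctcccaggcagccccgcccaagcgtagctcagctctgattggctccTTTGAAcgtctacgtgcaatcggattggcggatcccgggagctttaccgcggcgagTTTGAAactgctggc
Kif11: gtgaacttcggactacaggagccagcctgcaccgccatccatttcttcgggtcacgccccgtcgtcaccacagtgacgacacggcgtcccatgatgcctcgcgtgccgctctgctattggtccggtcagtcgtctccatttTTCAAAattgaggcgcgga
Cdc20: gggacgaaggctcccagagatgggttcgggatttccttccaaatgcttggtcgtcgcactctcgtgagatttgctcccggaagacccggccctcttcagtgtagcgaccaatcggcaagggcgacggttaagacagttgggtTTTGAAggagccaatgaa
They lie at chr8:75109349-75109508, plus strand (Mcm5), chr1:128359706-128359865, minus strand (Mcm6), chr10:69352913-69353072, minus strand (Cdk1), chr19:37376222-37376381, plus strand (Kif11) and chr4:118437344-118437503, minus strand (Cdc20). In Mcm5 the capitals are 2 overlapping E2F-type matches, and in Mcm6 they are 2 overlapping ones and 1 more nearer the start. In Cdk1 they are 1 E2F-type and 2 CHR-type matches, 71 and 15 bases before the start, and in Kif11 and Cdc20 1 CHR-type match each, 19 and 18 bases before it.

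The letters searched for, on both strands of the 250 bases before the start, were TTTCCCGC, TTTCGCGC, TTTGCCGC and TTTGGCGC for E2F, TTTGAA and TTCGAA for the CHR, and CCAAT. In the members' windows no match of one motif overlapped a match of another. Members were counted by gene, with a match in any window of the gene, whereas the shares over all windows were counted by window. An E2F-type match was in 7 of 15 G1/S and S genes with a window (46.7%), 1 of 15 G2 and mitosis genes (6.67%) and none of 5 G1 control genes, and in 1.86% of all 32851 windows. A CHR-type match was in 7 of 15 G2 and mitosis genes (46.7%), 2 of 15 G1/S and S genes (13.3%) and none of 5 G1 control genes, and in 17.1% of all windows. CCAAT was in 14 of 15 G2 and mitosis genes (93.3%), 11 of 15 G1/S and S genes (73.3%) and 33.8% of all windows. The classes were set by role, so these shares describe the genes and were not tested, and a match of letters is not a binding site. The matches did not divide the genes by direction in Flk1-positive against other doxycycline samples. A CHR-type match was in 4 of the 9 mitosis genes with a window that rose (Top2a, Cdk1, Kif11 and Cdc20, but not Ccnb1, Cenpa, Cenpe, Bub1 or Cdc25b) and in 3 of the 6 that were not called (Bub1b, Ccnb2 and Mki67). An E2F-type match was in 3 of the 5 G1/S and S genes with a window that fell (Mcm5, Mcm6 and, in 1 of its 2 windows, Mcm7, but not Mcm3 or Ccne1), in Cdk2, which rose, and in 3 of the 9 that were not called (Cdc25a, Cdc6 and Orc1). No match in a window says nothing of sites elsewhere, and Cdc25c and Aurkb had no window.

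**Figure D4:**
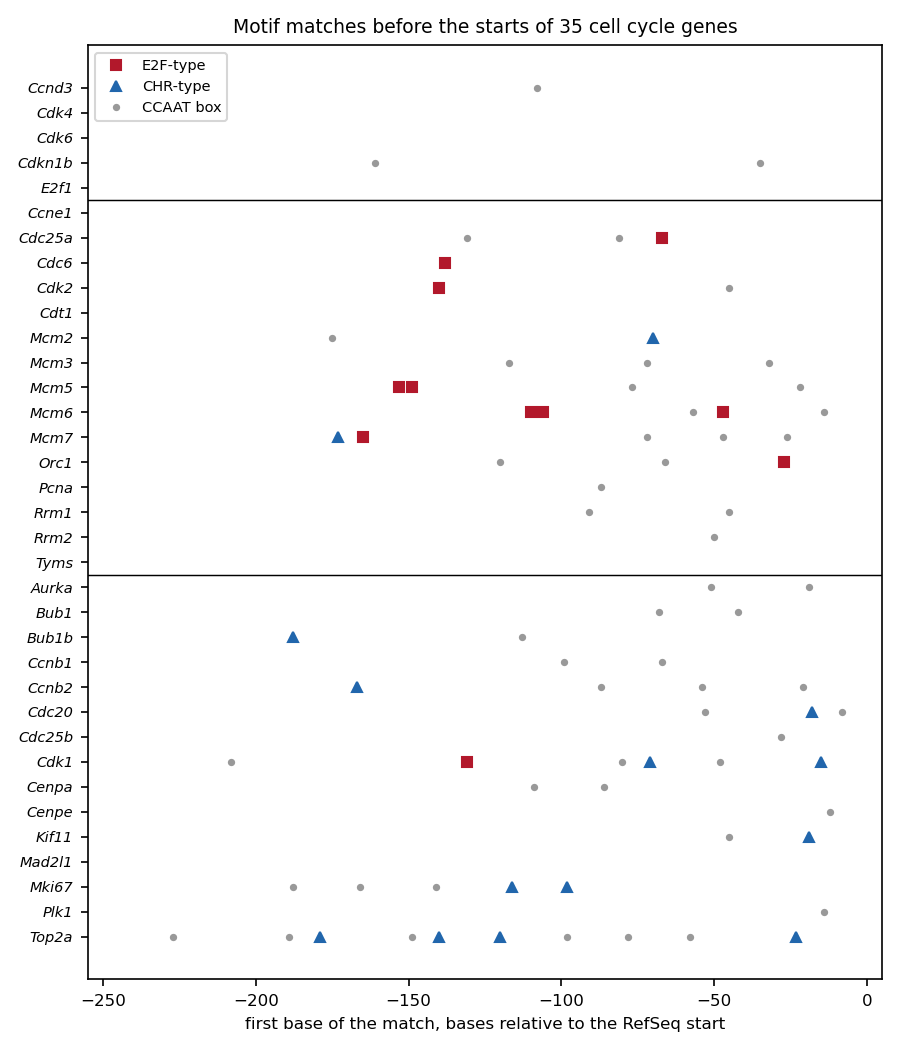
Positions of motif matches (x axis, first base of each match relative to the RefSeq start, in bases) in the windows of 35 genes, grouped as G1 control, G1/S and S, and G2 and mitosis. Red squares are E2F-type, blue triangles CHR-type and grey points CCAAT matches. Squares lie mostly among the G1/S and S genes and triangles among the G2 and mitosis genes.

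Among other genes of the pathway, 13 of 39 tested mitosis genes (33.3%) were higher and 2 (5.13%) lower in Flk1-positive than in other doxycycline samples (median 0.14), where 20.5% of all genes were higher and 21.3% lower. Cdca3, Kif4 and Espl1 (separase, which cuts cohesin at anaphase) rose by 0.60, 0.62 and 0.61 on the log2 scale (edgeR, adjusted p = 5.44e-05, 7.03e-05 and 8.11e-05). Of 40 replication genes 8 were higher and 8 lower (median 0.03), which at 20% each way is near the share over all genes, so these counts say nothing particular about the list. The replication genes with the smallest adjusted p were Cdc7 (the kinase that fires licensed origins), Rfc4 (a clamp loader subunit) and Tk1 (thymidine kinase), with log2 fold changes of 0.60, 0.99 and 0.71 (edgeR, adjusted p = 0.00011, 0.000338 and 0.000718). Of 24 G1 regulators 5 (20.8%) were higher, again near that share, and 7 (29.2%) lower. Myc, a transcription factor that drives growth, rose by 0.53 and E2f8, a repressor of E2F targets, fell by 0.59 (edgeR, adjusted p = 0.000165 and 0.000304).

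The same Flk1-positive libraries were set against untreated embryoid bodies of day 2.5, a comparison that shares them with the preceding one. Ccnd1, Ccnd2, Cdk6 and Ccne1 were lower, as were 11 of 17 genes of G1/S and S, and 9 of 18 genes of G2 and mitosis were higher. In all 10 members were higher and 16 lower, while 55.3% of all genes tested were called, 28.6% higher and 26.6% lower. Of the 17 G1/S and S genes 1, Cdk2, was higher (median -0.26). Of the 18 G2 and mitosis genes 1, Ccna2, was lower (median 0.35), and of the 9 G1 control genes 4 were lower (median -0.20), beside a median of 0.01 over all genes tested. Calls for 17 of the 26 held under all 17 alternatives, and those for Ccne2, Cdc20, Cdk1, Cdkn1c, Cenpa, Mcm2, Mcm3, Pcna and Rrm2 were lost without at least 1 of Flk1-positive replicate 1 and 2, untreated day 2.5 replicate 1 and 2 and untreated day 2 replicate 1 and 2 or with trends of length and GC content removed (edgeR, adjusted p up to 0.906). The primitive streak markers summed to 710.2 to 739 CPM in Flk1-positive and 2485 to 2844 CPM in untreated libraries, with Eomes at 123 and 130.2 CPM in Flk1-positive and 1204 and 1455 CPM in untreated ones. The pluripotency markers summed to 922 to 1009 CPM in Flk1-positive and 1390.3 to 1515 CPM in untreated libraries, and the endothelial and blood markers to 2559.6 to 2617 CPM in Flk1-positive and 27.5 to 27.5 CPM in untreated ones. Within these sums Utf1 and Pecam1 overlapped between the groups.

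Cdk6 stood at 4.17 and 3.66 CPM in Flk1-positive libraries, against 21.02 and 22.1 CPM in untreated ones, a log2 fold change of -2.45 ± 0.16 (SE; edgeR, adjusted p = 5.73e-09). Ccnd2 stood at 11.5 and 14.4 CPM in Flk1-positive libraries, against 70.5 and 65.2 CPM in untreated libraries, a log2 fold change of -2.39 ± 0.13 (SE; edgeR, adjusted p = 5.18e-10). Ccnd1 stood at 133 and 129.8 CPM in Flk1-positive libraries, against 309 and 302 CPM in untreated libraries, a log2 fold change of -1.22 ± 0.08 (SE; edgeR, adjusted p = 5.69e-09). In all 3 genes both Flk1-positive values were below both untreated values. Ccnd3, with 68.3 and 58.8 CPM in Flk1-positive and 71.3 and 68.2 CPM in untreated libraries, did not pass (log2 fold change -0.13; edgeR, adjusted p = 0.333). Ccne1 fell to 116 and 119 CPM in Flk1-positive libraries, against 235 and 247 CPM in untreated libraries, a log2 fold change of -1.04 ± 0.08 (SE; edgeR, adjusted p = 4.11e-08). The Cdk inhibitors did not move together. Cdkn1b had 90.1 and 82.7 CPM in Flk1-positive and 75.9 and 89.96 CPM in untreated libraries, which overlapped (log2 fold change 0.06; edgeR, adjusted p = 0.643). Cdkn1c had 31.5 and 33.4 CPM in Flk1-positive libraries, against 38.5 and 46.6 CPM in untreated libraries, a log2 fold change of -0.39 ± 0.13 (SE; edgeR, adjusted p = 0.0161). It was -0.25 without untreated day 2.5 replicate 2 and -0.24 with trends of length and GC content removed, and passed in neither.

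All 6 Mcm genes were lower in Flk1-positive than in untreated samples. Mcm4 and Mcm7 fell by 0.62 and 0.40 on the log2 scale (edgeR, adjusted p = 2.17e-05 and 0.000966), and Mcm6, Mcm5, Mcm2 and Mcm3 by 0.38, 0.35, 0.22 and 0.25 (adjusted p = 0.00103, 0.00156, 0.0255 and 0.0173). Cdc6 stood at 65.3 and 71.7 CPM in Flk1-positive libraries, against 98.1 and 99.3 CPM in untreated libraries, a log2 fold change of -0.53 ± 0.09 (SE; edgeR, adjusted p = 0.000136). Pcna and Rrm2 fell by 0.29 and 0.26 (edgeR, adjusted p = 0.0271 and 0.00995), but with trends of length and GC content removed the log2 fold change of Pcna was 0.013 and that of Rrm2 -0.05. Ccne2 had 9.33 and 14.3 CPM in Flk1-positive and 15.8 and 25.7 CPM in untreated libraries. These replicates lay far apart within both groups, and its call (log2 fold change -0.82; edgeR, adjusted p = 0.00714) was lost without Flk1-positive replicate 1 (log2 fold change -0.57) or untreated day 2.5 replicate 2 (-0.43). Among the mitosis genes, Cdc25c and Cdc25b rose by 0.81 and 0.66 and Top2a by 0.58 (edgeR, adjusted p = 0.000154, 0.000165 and 8.59e-05). Ccnb1, which rose against other doxycycline samples, had a log2 fold change of 0.21 against untreated samples and did not pass (edgeR, adjusted p = 0.069). Ccna2 stood at 267 and 285 CPM in Flk1-positive libraries, against 377 and 383 CPM in untreated ones, a log2 fold change of -0.46 ± 0.09 (SE; edgeR, adjusted p = 0.000411).

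Of the wider lists, 16 of 39 mitosis genes (41.0%) were higher and 4 (10.3%) lower, 5 of 40 replication genes (12.5%) were higher and 15 (37.5%) lower, and 3 of 24 G1 regulators (12.5%) were higher and 9 (37.5%) lower in Flk1-positive than in untreated samples, beside 28.6% higher and 26.6% lower of all genes. Myc stood at 68.8 and 68.8 CPM in Flk1-positive libraries, against 149 and 147 CPM in untreated libraries, a log2 fold change of -1.10 ± 0.09 (SE; edgeR, adjusted p = 3.46e-08). Mycn, its paralog of early embryonic cells, stood at 40.1 and 34.6 CPM in Flk1-positive libraries, against 94.4 and 89.6 CPM in untreated libraries, a log2 fold change of -1.30 ± 0.12 (SE; edgeR, adjusted p = 2.14e-07). Neither gene had overlapping groups. Cdkn1a, a Cdk inhibitor known as a target of the p53 tumour suppressor, rose by 0.69 and Kif4, a chromosome-bound kinesin, by 0.76 (edgeR, adjusted p = 2.13e-05 and 4.1e-06). Pold2, a subunit of DNA polymerase delta, fell by 1.11 and Cdc7 rose by 0.62 (edgeR, adjusted p = 2.57e-07 and 3.84e-05).

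Doxycycline against no doxycycline at day 2.5, in samples not labelled Flk1-positive, changed 5 of the 9 G1 control genes, 3 of the 17 G1/S and S genes and 3 of the 18 G2 and mitosis genes. In all, 3 members were higher and 8 lower, while 29.9% of all genes tested were called, 16.1% higher and 13.8% lower, so a smaller share of members than of genes in general was called higher. Of the 9 G1 control genes 2 were higher and 3 lower (median -0.17), of the 17 G1/S and S genes 3 were lower (median -0.09), and of the 18 G2 and mitosis genes 1 was higher and 2 were lower (median -0.02). The median over all genes tested was 0.003. Calls for Ccnd1, Ccnd2, Cdk6 and Ccne1 held under all 17 alternatives. The 3 higher calls were all lost without doxycycline replicate 1 and numbered 5 without either doxycycline library of day 2, and the 8 lower calls numbered 4 without doxycycline day 2.5 replicate 2. The calls for Aurka, Ccnb1, Cdc25a, Cdc25b, Cdc6, Cdkn1b and Cdkn1c were lost without at least 1 of Flk1-positive replicate 1 and 2, other doxycycline day 2.5 replicate 1 and 2, untreated day 2.5 replicate 1 and 2 and untreated day 2 replicate 1 and 2 (edgeR, adjusted p up to 0.266), and that for Aurka also with trends of length and GC content removed. The primitive streak markers summed to 779.7 to 806 CPM with doxycycline and 2485 to 2844 CPM without it, with Eomes at 336 and 333 CPM with doxycycline and 1204 and 1455 CPM without it. The pluripotency markers summed to 1054 to 1095 CPM with doxycycline and 1390.3 to 1515 CPM without it, and the endothelial and blood markers to 1198 to 1226 CPM with doxycycline and 27.5 to 27.5 CPM without it. Utf1 went against the pluripotency sum, with 240 and 227 CPM with doxycycline and 131 and 134 CPM without it.

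Ccnd2 stood at 32.5 and 32.8 CPM with doxycycline at day 2.5, against 70.5 and 65.2 CPM without, a log2 fold change of -1.05 ± 0.12 (SE; edgeR, adjusted p = 5.9e-06). Cdk6 stood at 10.7 and 10.5 CPM with doxycycline, against 21.02 and 22.1 CPM without it, a log2 fold change of -1.02 ± 0.14 (SE; edgeR, adjusted p = 6.24e-05). Ccnd1 stood at 186 and 190.4 CPM with doxycycline, against 309 and 302 CPM without it, a log2 fold change of -0.70 ± 0.08 (SE; edgeR, adjusted p = 6.54e-06). None of these groups overlapped. Ccnd3 had 58.6 and 65.1 CPM with doxycycline and 71.3 and 68.2 CPM without (log2 fold change -0.17; edgeR, adjusted p = 0.27). The Cdk inhibitors were both higher with doxycycline. Cdkn1c stood at 62.6 and 58.1 CPM with doxycycline, against 38.5 and 46.6 CPM without it, a log2 fold change of 0.50 ± 0.12 (SE; edgeR, adjusted p = 0.00581), and Cdkn1b at 120.2 and 110.3 CPM with doxycycline, against 75.9 and 89.96 CPM without it, a log2 fold change of 0.47 ± 0.10 (SE; edgeR, adjusted p = 0.00211). In these doxycycline samples Ccnd1 and Ccnd2 were thus lower and both inhibitors higher than in untreated samples, whereas in the Flk1-positive samples above Ccnd1 and Ccnd2 were lower and neither inhibitor was called higher than in untreated samples. Ccne1, Cdc6 and Cdc25a fell by 0.44, 0.33 and 0.30 (edgeR, adjusted p = 0.000633, 0.0103 and 0.0145). Ccnb1 and Aurka fell by 0.33 and 0.25, and Cdc25b rose by 0.36 (adjusted p = 0.0134, 0.0497 and 0.0241).

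Among other genes of the pathway at day 2.5, 5 of 24 G1 regulators (20.8%) were higher and 7 (29.2%) lower, none of 40 replication genes was higher and 9 (22.5%) were lower, and 2 of 39 mitosis genes (5.13%) were higher and 3 (7.69%) lower, beside 16.1% higher and 13.8% lower of all genes. Myc stood at 48.01 and 47.02 CPM with doxycycline, against 149 and 147 CPM without, a log2 fold change of -1.64 ± 0.09 (SE; edgeR, adjusted p = 1.16e-09). Mycn fell by 1.05 and Cdkn1a rose by 0.69 (edgeR, adjusted p = 5.08e-06 and 4.82e-05). Pold2, Orc3 and Mcm10, which acts when the helicase is switched on, fell by 0.64, 0.53 and 0.46 (edgeR, adjusted p = 0.000169, 0.000459 and 0.000843).

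At day 2 doxycycline changed few genes, among the members as among all genes tested. Ccnd2 was lower and none of the 44 members was higher. Of all genes tested 4.67% were called, 3.11% higher and 1.56% lower, so these counts say nothing particular about the members. Ccnd2 stood at 31.6 and 36.1 CPM with doxycycline, against 59.8 and 61.6 CPM without, and the groups did not overlap. The log2 fold change of -0.84 ± 0.12 (SE; edgeR, adjusted p = 0.000393) held under all 17 alternatives. Cdk6 was next, with 13.5 and 14.95 CPM with doxycycline against 20.2 and 19.8 CPM without it, and did not pass (log2 fold change -0.49 ± 0.15; edgeR, adjusted p = 0.0693). Ccnd1, with 312 and 313 CPM with doxycycline and 361 and 354 CPM without, did not overlap either and did not pass (log2 fold change -0.19; edgeR, adjusted p = 0.208). At an unadjusted p under 0.05 edgeR had 3 members higher and 3 lower. DESeq2 and limma-voom called none higher. Without doxycycline day 2 replicate 1 edgeR called 3 members higher and 4 lower, and without replicate 2 it called 3 and 3. Of the wider lists, E2f4 rose by 0.81, Incenp rose by 0.38 and Mycn fell by 0.52 (edgeR, adjusted p = 1.24e-05, 0.0126 and 0.0134), and none of 40 replication genes was called. At day 2 the pluripotency markers summed to 1577 to 2116 CPM with doxycycline and 1908 to 2066 CPM without it. Of these, Nanog had 88.1 and 85.9 CPM with doxycycline and 213 and 220 CPM without it, and Sox2 was also lower. Utf1 was higher, at 331 and 264 CPM with doxycycline and 220 and 227 CPM without it, and Pou5f1 overlapped. The primitive streak markers summed to 1134 to 1244 CPM with doxycycline and 1158 to 1188 CPM without it. Among them T and Mixl1 were higher and Eomes and Mesp1 lower with doxycycline. The endothelial and blood markers summed to 669 to 729 CPM with doxycycline and 70.5 to 76.7 CPM without it. Most of that sum with doxycycline was Etv2, at 507 and 403 CPM. Kdr, Tal1 and Lmo2 were also higher with doxycycline. Pecam1 had 15.8 and 11.3 CPM with doxycycline and 14.8 and 17.5 CPM without it, and Cdh5 was below 1 CPM in all these libraries. E2f4 encodes an E2F factor best known as a repressor, and Incenp a partner of Aurkb.

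Day 2.5 was set against day 2 with and without doxycycline, comparisons that share no library. In both, the G1/S and S genes and the G2 and mitosis genes were more often lower than higher at day 2.5, and Cdkn1b and Mki67 were higher. With doxycycline, 4 members were higher and 21 lower, while 46.0% of all genes tested were called, 22.9% higher and 23.1% lower. Without it, 2 were higher and 11 lower, while 19.5% of all genes were called, 9.22% higher and 10.3% lower. With doxycycline 10 of the 17 G1/S and S genes and 8 of the 18 G2 and mitosis genes were lower (medians -0.25 and -0.22), and without it 6 and 5 were (medians -0.18 and -0.12). All 11 members lower without doxycycline were among the 21 lower with it, which is 52.4% of the 21. Over all genes tested, 73.8% of those lower without doxycycline were also lower with it, and they made up 32.8% of those lower with it. Cell markers also differed between the days. With doxycycline the pluripotency markers summed to 1054 to 1095 CPM at day 2.5 and 1577 to 2116 CPM at day 2, the primitive streak markers to 779.7 to 806 CPM at day 2.5 and 1134 to 1244 CPM at day 2, and the endothelial and blood markers to 1198 to 1226 CPM at day 2.5 and 669 to 729 CPM at day 2. Within the last of these sums Etv2 was lower at day 2.5, with 272 and 255 CPM against 507 and 403 CPM at day 2. Pecam1 was lower as well. Without doxycycline the pluripotency markers summed to 1390.3 to 1515 CPM at day 2.5 and 1908 to 2066 CPM at day 2, the primitive streak markers to 2485 to 2844 CPM at day 2.5 and 1158 to 1188 CPM at day 2, and the endothelial and blood markers to 27.5 to 27.5 CPM at day 2.5 and 70.5 to 76.7 CPM at day 2. Here Nanog went against its sum, with 262 and 242 CPM at day 2.5 and 213 and 220 CPM at day 2. Mesp1 overlapped between the days.

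These counts rested partly on single libraries. The count of 21 was 12 without doxycycline day 2.5 replicate 1, 13 without replicate 2 and 12 with only the compared groups in the fit, and the count of 4 was 2 in each of these. The counts of 10 and 8 by phase were 5 and 5 without doxycycline day 2.5 replicate 1 and 6 and 5 without replicate 2. The count of 11 was 2 without either untreated day 2 library, 3 without untreated day 2.5 replicate 2, 7 without doxycycline day 2.5 replicate 1, and 17 without either doxycycline day 2 library or with trends of length and GC content removed. The count of 2 higher was 1 without either library of untreated day 2, of untreated day 2.5 or of doxycycline day 2.5. Calls for 13 members with doxycycline (Cdkn1b and Mki67 higher, Aurka, Aurkb, Ccnb1, Ccnd1, Ccne1, Cdc20, Cdc25a, Cdk1, Cdk2, Cdk4 and Orc1 lower) and 3 without (Cdkn1b higher, Ccnb1 and Cdc20 lower) held under all 17 alternatives.

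**Figure D5:**
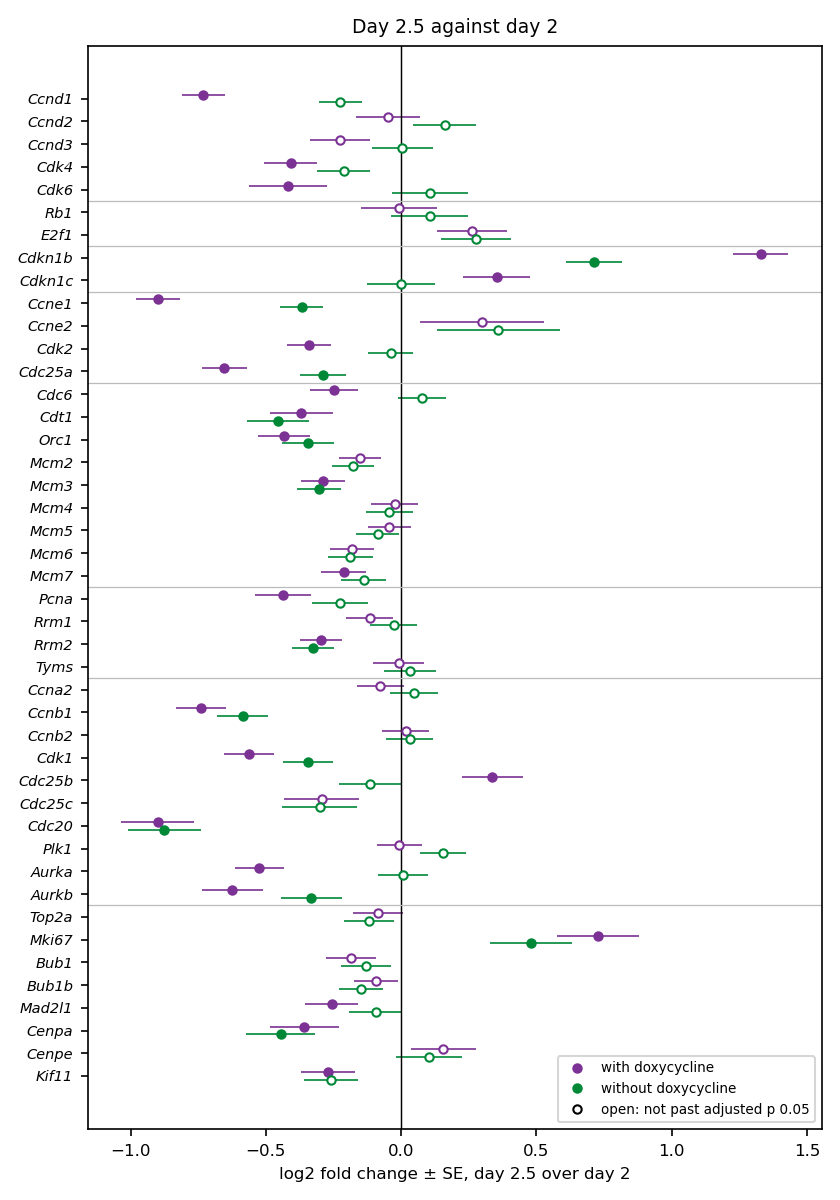
Log2 fold change of each of the 44 genes, day 2.5 over day 2 (x axis), with bars of 1 standard error. Purple points are samples with doxycycline, green points samples without, and open points did not pass an adjusted p of 0.05. Cdkn1b lies furthest right in both, at 1.33 and 0.71, and Cdc20 furthest left, at -0.90 and -0.88.

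Cdkn1b rose most. With doxycycline it stood at 120.2 and 110.3 CPM at day 2.5, against 46.3 and 45.5 CPM at day 2, a log2 fold change of 1.33 ± 0.10 (SE; edgeR, adjusted p = 1.77e-07). Without doxycycline it stood at 75.9 and 89.96 CPM at day 2.5, against 51.02 and 50.3 CPM at day 2, a log2 fold change of 0.71 ± 0.10 (SE; edgeR, adjusted p = 0.000493). The days did not overlap in either setting. Ccne1 fell to 181 and 174 CPM at day 2.5 with doxycycline, against 330.2 and 331 CPM at day 2, a log2 fold change of -0.90 ± 0.08 (SE; edgeR, adjusted p = 7.02e-07). Without doxycycline it had 235 and 247 CPM at day 2.5, against 308 and 314 CPM at day 2, a log2 fold change of -0.37 ± 0.08 (SE; edgeR, adjusted p = 0.00568), a call lost without either untreated day 2 library. Cdc25a and Orc1 fell by 0.65 and 0.43 with doxycycline (edgeR, adjusted p = 2.21e-05 and 0.00175), and by 0.29 and 0.35 without it (adjusted p = 0.0267 and 0.0203). Ccnd1 had 186 and 190.4 CPM at day 2.5 with doxycycline, against 312 and 313 CPM at day 2, a log2 fold change of -0.73 ± 0.08 (SE; edgeR, adjusted p = 4.4e-06). Without doxycycline its log2 fold change was -0.23 and did not pass (edgeR, adjusted p = 0.0566). Ccnd2 passed in neither setting, with -0.05 with doxycycline and 0.16 without. Ccnd3 passed in neither, with -0.23 with doxycycline and 0.00 without, and Cdkn1c rose by 0.35 with doxycycline (edgeR, adjusted p = 0.0287), a call lost without doxycycline day 2 replicate 2 or either doxycycline library of day 2.5 and with only the compared groups in the fit.

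Of the mitosis genes, Cdc20 stood at 185 and 175 CPM at day 2.5 with doxycycline, against 391 and 281 CPM at day 2, a log2 fold change of -0.90 ± 0.13 (SE; edgeR, adjusted p = 8.61e-05). Without doxycycline it stood at 221 and 181 CPM at day 2.5, against 368 and 369.7 CPM at day 2, a log2 fold change of -0.88 ± 0.13 (SE; edgeR, adjusted p = 0.000718). Ccnb1 fell by 0.74 with doxycycline and by 0.59 without (edgeR, adjusted p = 1.85e-05 and 0.000897). The cyclin that starts mitosis and the protein that ends it were thus both lower at the later day. Mki67 stood at 755 and 796 CPM at day 2.5 with doxycycline, against 369 and 568 CPM at day 2, a log2 fold change of 0.73 ± 0.15 (SE; edgeR, adjusted p = 0.00148), and the doxycycline day 2 replicates lay far apart: without replicate 1 of them the log2 fold change was 0.45 and without replicate 2 it was 1.07. Without doxycycline it had 652 and 639.8 CPM at day 2.5, against 461 and 465 CPM at day 2, a log2 fold change of 0.48 ± 0.15 (SE; edgeR, adjusted p = 0.0392). The 5 mitosis genes lower at day 2.5 without doxycycline (Aurkb, Ccnb1, Cdc20, Cdk1 and Cenpa) were all among the 11 that were higher in Flk1-positive than in other doxycycline samples, which is 45.5% of the 11. These comparisons share no library, and over all genes tested 38.3% of those lower at day 2.5 without doxycycline were higher in Flk1-positive samples, 19.2% of all those higher there.

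Of the wider lists, with doxycycline 23 of 40 replication genes (57.5%) were lower at day 2.5 than at day 2 and 2 (5%) higher. Of 39 mitosis genes 15 (38.5%) were lower and 4 (10.3%) higher. Of 24 G1 regulators 9 (37.5%) were lower and 2 (8.33%) higher. Beside these, 23.1% of all genes were lower and 22.9% higher. Without doxycycline 6 replication genes (15%) were lower and 1 (2.5%) higher, and 6 mitosis genes (15.4%) lower and 5 (12.8%) higher. There 4 G1 regulators (16.7%) were lower and 1 (4.17%) higher, beside 10.3% lower and 9.22% higher of all genes. Orc5, of the origin recognition complex, and Rpa2 and Rpa1, which coat single-stranded DNA, fell by 0.77, 0.76 and 0.57 with doxycycline (edgeR, adjusted p = 1.88e-05, 1.97e-05 and 9.75e-05). Without doxycycline Rpa1 and Rpa2 fell by 0.45 and 0.48 (adjusted p = 0.00287 and 0.00355), and Orc5 had a log2 fold change of -0.29 and did not pass (adjusted p = 0.0516). Mycn fell by 1.46 with doxycycline and 0.93 without (edgeR, adjusted p = 2.11e-07 and 0.000162). Myc went in opposite directions. With doxycycline it stood at 48.01 and 47.02 CPM at day 2.5, against 105 and 103 CPM at day 2, a log2 fold change of -1.13 ± 0.09 (SE; edgeR, adjusted p = 1.31e-07). Without doxycycline it stood at 149 and 147 CPM at day 2.5, against 122 and 115 CPM at day 2, a log2 fold change of 0.32 ± 0.08 (SE; edgeR, adjusted p = 0.0158). The days did not overlap in either setting, and the difference between the changes, the interaction term, was -1.45 on the log2 scale (edgeR, adjusted p = 1.23e-06).

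The interaction asked whether the effect of doxycycline differed between the days. Of the 44 members 1 had a higher and 3 a lower effect at day 2.5 than at day 2, while 12.1% of all genes tested were called, 6.87% higher and 5.24% lower. Cdkn1b had a difference of 0.62 ± 0.14 on the log2 scale (edgeR, adjusted p = 0.0115), with an effect of doxycycline of 0.47 at day 2.5 and -0.14 at day 2. Ccnd1, Ccne1 and Aurka had differences of -0.51, -0.53 and -0.53 (edgeR, adjusted p = 0.00758, 0.00619 and 0.0135). The effect on Ccnd2, the gene that fell at both days, differed between them by -0.21 ± 0.17, which did not pass (edgeR, adjusted p = 0.458). All 4 calls were lost under some leave-out: the count of 1 was 0 without untreated day 2 replicate 1, doxycycline day 2.5 replicate 1 or untreated day 2.5 replicate 1, 2 without doxycycline day 2 replicate 1 and 4 without its replicate 2. The count of 3 was 1 without either untreated day 2 library or doxycycline day 2.5 replicate 2, and 5 and 10 without doxycycline day 2 replicates 1 and 2.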

How the data were processed

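RNA from 10 embryoid body libraries was measured by bulk RNA sequencing. The authors deposited raw read counts per gene, as whole numbers with no normalization. Per the submitters' processing notes the build was mm10 and the tools were TopHat, HTSeq and DESeq2, named without versions or roles. For the counting, the sources used here give neither the annotation nor the strand setting. Total counts ran between 18074070 and 36068329 per library, and 92 spike-in entries, all at 0, were left out.

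The counts were fitted with edgeR 4.0.16 under R 4.3.3: filterByExpr (minimum count 10, minimum total 15), TMM scaling, and a robust quasi-likelihood fit of 1 mean per group over all 10 libraries, with 5 residual degrees of freedom. P-values of the 7 comparisons were adjusted by Benjamini-Hochberg over 14548 genes, with a threshold of 0.05. CPM values use TMM-scaled library sizes. Alternatives were RLE scaling, DESeq2 1.42.0, limma-voom (limma 3.58.1), no filter, only the compared groups, a replicate block, removal of length and GC trends, and each library left out. The procedure was tested on simulated data. All 44 members could be named, and up to 3 called genes with the smallest adjusted p from each wider list. Members, lists and tests were chosen with earlier results of these data known. Coordinates and exon lengths are from GENCODE M21 (GRCm38).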

Additional observations from a re-analysis of the deposited data

Results flagged for a closer look

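By the interaction term of the same fit, the effect of doxycycline was called different between day 2.5 and day 2 for 4 members. Of all genes tested 12.1% were called, so this count says nothing particular about the members. Each of the 4 calls was lost under some leave-out of a library. Cdkn1b had a difference of 0.62 on the log2 scale, from an effect of 0.47 at day 2.5 and -0.14 at day 2. Ccnd1 had a difference of -0.51 (effects of -0.70 at day 2.5 and -0.19 at day 2), Ccne1 one of -0.53 (-0.44 at day 2.5 and 0.09 at day 2) and Aurka one of -0.53 (-0.25 at day 2.5 and 0.28 at day 2). The replicates of doxycycline at day 2, which enter each of these values, were the pair that differed most.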

How the results depend on the processing

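Of 104 calls of members, 54 held under all 17 alternatives. DESeq2, limma-voom and the replicate block each kept all 104, RLE scaling 101, no filter 99, removal of length and GC trends 97 and fitting only the compared groups 93. Replicate numbers did not pair the libraries (correlations of -0.03 to 0.10); under the replicate block no count moved by over 1.5 times. Leaving out 1 library kept between 75 and 101 calls. Over these leave-outs, higher and lower members numbered 0 to 3 and 1 to 4 for doxycycline at day 2, 0 to 5 and 4 to 11 at day 2.5, 8 to 14 and 9 to 16 for Flk1-positive against other doxycycline samples, 7 to 13 and 12 to 19 against untreated samples, 2 to 5 and 12 to 21 for day 2.5 against day 2 with doxycycline, 1 to 3 and 2 to 17 without, and 0 to 4 and 1 to 10 for the interaction. Counts by phase, added as results after seeing the data, ran over 7 to 12 for mitosis genes higher in Flk1-positive than in other doxycycline samples and 6 to 12 against untreated samples, 8 to 14 for G1/S and S genes lower there, and 5 to 11 and 5 to 8 for G1/S and S and mitosis genes lower at day 2.5 with doxycycline. With only the compared groups in the fit, higher members numbered 5 for doxycycline at day 2.5, 2 for day 2.5 against day 2 with doxycycline and 4 without, and lower members with doxycycline numbered 12, of which 5 were G1/S and S and 5 mitosis genes. With length and GC trends removed, 1 member was higher with doxycycline at day 2, 7 were higher at day 2.5 with doxycycline, 17 were lower at day 2.5 without it, and the interaction had 2 higher and 8 lower. Pcna, at -0.29 in Flk1-positive against untreated samples, reversed to 0.013 with these trends removed. The cause of these shifts was not tested. Depth limits Cdk6 most, which had 69 counts in 1 library.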

Other observations

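Ccne2 was the member whose replicates differed most in 3 of the 5 groups. It had 9.33 and 14.3 CPM in Flk1-positive libraries, 15.5 and 15.2 CPM in other doxycycline libraries and 15.8 and 25.7 CPM in untreated libraries of day 2.5, and at day 2 11.7 and 13.3 CPM with doxycycline and 14.3 and 18.1 CPM without. In GENCODE M21, 17.4% of its exon length overlaps another gene, Ints8. The shares that follow rest on exon lengths joined over all transcripts of each gene, so they are approximate. Per kilobase of exon, Ccne1 made up 92.9% of the 2 E-type cyclins in Flk1-positive libraries. It made up 93.8% in other doxycycline libraries and 93.9% in untreated libraries of day 2.5. Cyclin B1 made up 16.1% ± 0.137 of the summed level of Ccna2, Ccnb1 and Ccnb2 per kilobase in Flk1-positive libraries and 10.1% ± 0.0779 in other doxycycline libraries, while cyclin A2 made up 39.99% ± 2.63 in Flk1-positive and 46.5% ± 1.01 in other doxycycline libraries (SD, n = 2 each).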
